A study of Mus musculus with 2 samples.

Results

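Pro-B and large pre-B cells were the 244 of 5302 kept cells that expressed the surrogate light chain or terminal transferase together with the B cell receptor signalling chains. A cell entered when its raw unique molecular identifiers (UMIs, 1 per captured transcript) summed to 3 or more over Igll1, Vpreb1 and Dntt and to 2 or more over Cd79a and Cd79b. It also had to hold at most 1 UMI of Ms4a1, the CD20 gene of later B cells, and 0 over the T cell genes Cd3d, Cd3e and Cd3g. The cells were thus chosen by the measured UMIs of these 9 genes, whose levels are given below only as a description. There were 89 such cells of 2666 in the library made without surgery (day 0) and 155 of 2636 in the library made 28 days after surgery (day 28).

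B cells are made from progenitors that rearrange the immunoglobulin heavy chain locus before the light chain loci. Pro-B cells cut the heavy chain genes with the Rag1 and Rag2 recombinase, and terminal transferase, the product of Dntt, adds untemplated bases at the joints. A cell whose heavy chain is productive pairs it with the surrogate light chain, made of the Vpreb1 or Vpreb2 protein and the lambda 5 protein of Igll1, and sends it to the surface with Cd79a and Cd79b as the pre-B cell receptor. Large pre-B cells then divide under signals from that receptor and from the interleukin-7 receptor. Small pre-B cells stop dividing, lose the surrogate light chain and rearrange the light chain genes. In adult mice these steps are known from the bone marrow.

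Both libraries held cells sorted as YFP-positive and CD11b-negative from hindlimb muscle of Fsp1-Cre: R26R-EYFP mice, in which Cre driven by the Fsp1 (S100a4) promoter switches on a yellow fluorescent protein for good in a cell and its descendants. The day 0 mice had no operation, and the others underwent hindlimb ischemia surgery and were sampled at day 28. Each group was 1 library of 10x Genomics droplet RNA, and the labels used here give no number, age or sex of mice and no sham operation. With 1 library per group nothing below carries a test, and every 95% interval (exact Poisson for a level, Clopper-Pearson for a share, conditional binomial for a ratio) covers counting error only. The study states that 5000 cells were captured, and the files hold 2668 and 2653 barcodes. The day 28 library was deeper, with a median of 12265 UMIs per barcode against 4844 and a lowest total of 4175 against 3001. The pro-B and large pre-B cells had medians of 6019 UMIs and 2050 genes at day 0 and of 10564 UMIs and 2633 genes at day 28. Mitochondrial UMIs had a median of 2.52% and 2.51% in them. The libraries shared 13 cell barcodes, 0 of them in these cells.

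Igll1 had 1019 UMIs in 79 of the 89 day 0 cells and 1462 UMIs in 147 of the 155 day 28 cells. Vpreb1 had 1096 UMIs in 82 cells and 1992 UMIs in 146 cells. Dntt had 446 UMIs in 47 cells and 772 UMIs in 83 cells. The cells held 68.9% of all Igll1 UMIs of the day 0 library and 85.7% of those at day 28, while their share of all Cd79a UMIs was 8.68% and 41.6%. Levels are given in counts per 1e+06 UMIs (CPM), with UMIs summed over all cells of a set. On that scale Igll1 had 1413 CPM (1328 to 1503) in the day 0 cells and 746 CPM (708 to 785) in the day 28 cells, and Vpreb1 at 1520 and 1017 CPM. Few cells lay at the edge of the rule. At a sum of exactly 3 UMIs over Igll1, Vpreb1 and Dntt there were 3 cells at day 0 and 9 at day 28, and just outside it, at 2 UMIs, 15 and 21 cells. A sum of 2 over Cd79a and Cd79b was found in 4 and 2 cells, and a sum of 1 kept 6 and 18 cells out. A single UMI of Ms4a1 was found in 9 and 7 cells, and 2 UMIs kept 2 and 0 cells out. A single Cd3 UMI kept out 13 and 7 cells.

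The sequences before the RefSeq starts of these genes, from RefSeq promoter entries on GRCm38.p6, and those of the 2 surrogate light chain copies are given as a description. Their relation to the counts was not tested. Igll1 (ENSMUSG00000075370, chromosome 16, 16860671 to 16863985, minus strand), Vpreb1 (ENSMUSG00000059305, chromosome 16, 16868403 to 16870843, minus strand) and Vpreb2 (ENSMUSG00000059280, chromosome 16, 17980428 to 17981273, plus strand) lie on the same chromosome in GENCODE M21. Dntt (ENSMUSG00000025014) lies on chromosome 19 from 41029275 to 41059525 on the plus strand. Each of the 250 bases before the RefSeq start of Igll1 (chr16:16863986-16864235, minus strand) and Dntt (chr19:41029025-41029274, plus strand) is shown 5′ to 3′ in lower case, with every E-box, CANNTG, the sequence bound by the E2A family of B lineage factors, in capitals.
Igll1: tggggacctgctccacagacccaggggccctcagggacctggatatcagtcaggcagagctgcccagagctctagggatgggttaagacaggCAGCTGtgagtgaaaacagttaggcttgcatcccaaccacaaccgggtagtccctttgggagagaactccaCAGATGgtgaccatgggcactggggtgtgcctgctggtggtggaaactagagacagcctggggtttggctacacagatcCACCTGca
Dntt: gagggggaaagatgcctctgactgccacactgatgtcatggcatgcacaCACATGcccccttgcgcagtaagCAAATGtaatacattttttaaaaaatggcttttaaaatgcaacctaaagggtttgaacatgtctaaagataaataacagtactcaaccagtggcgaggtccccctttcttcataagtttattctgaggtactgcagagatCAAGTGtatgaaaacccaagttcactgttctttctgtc
Both windows hold 3 E-boxes, counted on both strands. All 8 promoters searched (Igll1, Vpreb1, Vpreb2, Vpreb3, Cd79a, Dntt, Rag1 and Il7r) held at least 1, as did 66.2% of the 32851 RefSeq promoters of that length. The palindromic site of the B lineage factor Ebf1 was found on either strand in 0 of the 8 and in 0.779% of all promoters, which says only that its letters are not in these windows.

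Vpreb1 and Vpreb2 are near-identical copies, and a stretch before their RefSeq starts is nearly the same in both. The stretch was picked as the best ungapped match between the 250 bases before each start. It ends at the Vpreb1 start but lies 250 to 145 bases before the Vpreb2 start. The Vpreb1 stretch lies inside the GENCODE extent of that gene given above. The 106 bases before the RefSeq start of Vpreb1 (chr16:16869256-16869361, minus strand) and the copy of them before Vpreb2 (chr16:17980315-17980420, plus strand) follow, with the 2 bases that differ in capitals.
Vpreb1: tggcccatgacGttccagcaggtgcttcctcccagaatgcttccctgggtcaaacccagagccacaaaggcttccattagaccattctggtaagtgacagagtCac
Vpreb2: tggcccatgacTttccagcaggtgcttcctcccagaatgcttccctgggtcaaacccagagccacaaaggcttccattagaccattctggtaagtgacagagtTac
The last 300 bases of the 2 transcripts, the end that this 3′ assay reads, were 96% identical, so how reads were split between them is uncertain. Vpreb2 had 69 UMIs at day 0 (95.7 CPM) and 39 at day 28 (19.9 CPM), a 4.81-fold lower level. Summed with Vpreb1, the level was 1616 CPM at day 0 and 1037 CPM at day 28, 1.56-fold lower.

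Genes outside the rule bore out the B lineage label in most of the cells. Ebf1, a factor that commits cells to the B lineage, had UMIs in 88 of 89 cells at day 0 and 152 of 155 at day 28, at 1786 and 1588 CPM. Vpreb3, a pre-B cell receptor assembly protein, had UMIs in 83 and 148 cells, at 1981 and 1406 CPM. Pax5, which holds cells in the B lineage, stood at 117 CPM (92.9 to 144) and 157 CPM (140 to 175). In erythroid cells of the same libraries, which should lack these genes, 14.5% and 10.3% held an Ebf1 UMI at median totals of 8399 and 15231 UMIs. Those 62 and 87 cells held at least 200 haemoglobin UMIs and none of Cd79a or Cd79b. That choice leaves out barcodes with Cd79a or Cd79b background, so shares of B cell genes in them may be too low. Kit, a receptor of early pro-B cells, was low, with 6 UMIs at day 0 and 20 at day 28. Some barcodes carried a second lineage or little of these B lineage genes. Cells were set aside when they held at least 25 UMIs of another lineage's list or of the plasma cell list. Those with fewer than 3 UMIs over Ebf1 and Vpreb3 were set aside too. Without these 5 cells at day 0 and 11 at day 28, 84 and 144 cells remained. At day 0, 2 of the 5 met a lineage list. The other 3 were low in Ebf1 and Vpreb3, which alone does not show a second lineage. At day 28 all 11 met a list. Those 16 cells, called set-aside cells below, held 10.0% of the cells' UMIs at day 0 and 15.4% at day 28. At day 28 they included a cell of 74610 UMIs with 940 from the neutrophil list, and the cell with most basophil-list UMIs had 312. Markers of the muscle itself were near 0: the 7 fibroblast genes summed to 1 and 5 UMIs and the 8 skeletal muscle genes to 4 and 6, with Pdgfra, Col1a1 and Acta2 at 0 in both libraries.

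The cells made up 3.34% (2.69 to 4.09) of kept cells at day 0 and 5.88% (5.01 to 6.85) at day 28, a ratio of 1.76 (1.35 to 2.31). The rule counts raw UMIs, so a deeper library passes more cells. With every kept cell thinned to 3000 UMIs before the rule, 78 and 93 cells passed, which is 2.93% (2.32 to 3.64) and 3.53% (2.86 to 4.30), and the ratio was 1.21 (0.883 to 1.65). Among barcodes of at least 5000 UMIs the shares were 4.54% and 6.08%, with a ratio of 1.34 (0.982 to 1.85). The interval of the ratio held 1 under both. Of these, only thinning sets every cell to the same depth. Shares are of the sorted cells and not of the muscle.

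Within these cells Dntt was close to on or off. It was at 0 UMIs in 42 cells at day 0 (47.2%) and 72 at day 28 (46.5%), and at 3 or more in 44 cells (49.4%) and 71 cells (45.8%). Only 3 and 12 cells fell between, at 1 or 2 UMIs. Median totals were 6726 UMIs in Dntt-zero cells and 5768 in Dntt-positive cells at day 0, and 12492 and 9185 at day 28, so the Dntt-zero cells were the deeper ones in both libraries. The rule requires Dntt-zero cells to hold Igll1 or Vpreb1. Igll1 was present without Dntt in 42 and 70 cells, both were present in 37 and 77, and Dntt without Igll1 in 10 and 6. The share of cells in each class differed between the libraries by less than its counting interval for Dntt-zero and Dntt-positive cells.

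**Figure D1:**
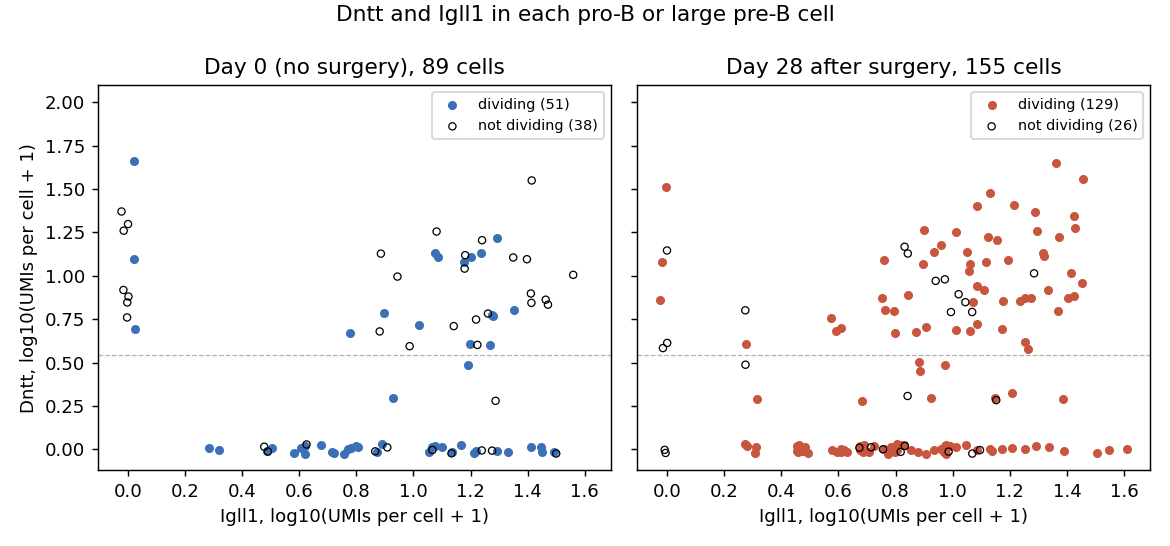
Each point is 1 cell, with Igll1 on the horizontal and Dntt on the vertical axis as log10(UMIs per cell + 1), day 0 on the left (89 cells) and day 28 on the right (155 cells). The dashed line separates cells with 2 or fewer UMIs of Dntt from those with 3 or more, points are jittered, and filled points are cells with 3 or more G2 and M phase UMIs after thinning. The cells fall into a row at 0 Dntt and a cloud above it in both libraries.

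Rag1, Erg and Flt3 were higher in Dntt-positive than in Dntt-zero cells in both libraries. Rag1 (chromosome 2, 101638282 to 101649501, minus strand), a subunit of the recombinase, stood at 75.5 CPM (47.3 to 114) in Dntt-positive and 7.37 CPM (1.52 to 21.5) in Dntt-zero cells at day 0. At day 28 it stood at 65.3 CPM (47.8 to 87.2) and 2.82 CPM (0.581 to 8.24). The Rag1 intervals of the 2 kinds of cell did not overlap in either library. Of 4 recombination and end joining genes read outside the rule, 2 (Rag1 and Xrcc6) were at least 2-fold higher in each library, and Hmgb1 and Hmgb2 had log2 ratios of -0.67 and -0.58 at day 0 and 0.27 and 0.33 at day 28. Erg, an ETS factor of stem and progenitor cells, stood at 106 against 4.91 CPM at day 0 and 85.2 against 1.88 CPM at day 28, a ratio of 21.6 (5.51 to 187) and 45.4 (12 to 383) on 2 UMIs in the Dntt-zero cells of each library. Flt3, a cytokine receptor of early lymphoid progenitors, stood at 117 against 12.3 CPM and at 36.9 against 1.88 CPM.

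Genes averaging 20 CPM or more over the 2 sets in both libraries were read, 4298 in this comparison. Of them 143 were at least 2-fold higher in Dntt-positive cells in both libraries, 3.33%, and 30 were at least 2-fold lower in both, 0.698%. Within a library, 10.5% were higher and 5.68% lower at day 0, and 6.54% higher and 1.72% lower at day 28. The highest by the smaller of the 2 ratios was Dlg2, which encodes a scaffold protein, at 130 against 4.91 CPM at day 0 and 116 against 2.82 CPM at day 28. Emp1, Egfl7, Cd69, Tsc22d1, Adgrg1, Gimap6, Sepp1, H1f0 and Tbc1d10c followed. Cd69, an early activation and retention receptor, was 6.27-fold (4.41 to 9.11) and 7.01-fold (4.87 to 10.4) higher. Egfl7, a secreted protein of progenitors and vessels, was 7.87-fold (4.11 to 16.6) and 6.83-fold (4.4 to 11) higher. Without the 16 set-aside cells, the log2 ratio of Dlg2 was 5.14 and 6.77, that of Cd69 2.96 and 2.92, and that of Rag1 3.77 and 5.91.

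Myl4, Cd24a, Fcrla and Bach2 were among the genes lower in Dntt-positive cells. Myl4, a myosin light chain, had 24 UMIs in Dntt-positive and 266 in Dntt-zero cells at day 0 and 62 and 700 at day 28, which is 7.94-fold and 7.47-fold lower. Cd24a, a surface marker whose level climbs through the pre-B stages, stood at 1369 against 4077 CPM at day 0 and 1219 against 3175 CPM at day 28. Fcrla, an intracellular Fc receptor-like protein of B cells, was 5.79-fold and 28.1-fold lower. Bach2, a repressor that acts at the pre-B cell receptor checkpoint, was 5.01-fold and 4.77-fold lower, and the kinase gene Blk, which acts below that receptor, stood at a ratio of 0.0998 (0.0115 to 0.396) on 2 UMIs and of 0.206 (0.103 to 0.379). Rsph1, Nrgn, Cd72, Lmo4, Pafah1b3 and Mrpl52 completed the ranked list. The fixed list of small pre-B and later B cell genes was not lower as a whole: of 9 read, 2 were at least 2-fold higher and 1 lower in each library, with medians of 0.31 and 0.29.

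By gene list, of 4 stem and lymphoid progenitor genes read, 3 were at least 2-fold higher in Dntt-positive cells at day 0 and 2 at day 28, with a median log2 ratio of 2.70 and 1.53 beside 0.04 and 0.12 for all genes read. All 5 set-aside cells of day 0 were Dntt-positive. At day 0 Flt3, which is not among those 4 because it lay under 20 CPM at day 28, had a log2 ratio of 3.25 with them and 2.16 without, and S100a4, the gene of the Cre promoter, 3.70 with them and 1.31 without. Of 11 immediate early and dissociation stress genes, 10 were at least 2-fold higher in Dntt-positive cells at day 0 and 4 at day 28 (medians 1.66 and 0.98). Nucleolar and Myc-responsive genes ran the other way, with 3 of 11 and 1 of 11 at least 2-fold lower and medians of -0.59 and -0.44. The values of all 3 lists include the set-aside cells, and none was taken without them. Ebf1 was 1.41-fold (1.26 to 1.57) and 1.77-fold (1.65 to 1.91) higher in Dntt-positive cells, under the fold used here.

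By G2 and M phase genes, fewer Dntt-positive cells of day 0 were dividing than of day 28. A cell was called dividing when it held 3 or more UMIs over 25 G2 and M phase genes after thinning to 3000 UMIs. By that measure 51 of 89 cells divided at day 0, 57.3% (46.4 to 67.7), and 129 of 155 at day 28, 83.2% (76.4 to 88.7). Among Dntt-zero cells the shares were 76.2% (60.5 to 87.9) and 86.1% (75.9 to 93.1), with overlapping intervals. Among Dntt-positive cells they were 38.6% (24.4 to 54.5), 17 of 44, and 81.7% (70.7 to 89.9), 58 of 71, and those intervals did not overlap. Within day 0 the intervals of Dntt-zero and Dntt-positive cells did not overlap either, and within day 28 they did. The median number of G2 and M phase UMIs per thinned Dntt-positive cell was 1 at day 0 and 11 at day 28. Without thinning the shares of all cells were 64.0% and 93.5%. The differences were smaller by S phase genes, counted the same way. By 3 or more S phase UMIs the shares of all cells were 82.0% (72.5 to 89.4) and 87.7% (81.5 to 92.5). In Dntt-positive cells they were 72.7% (57.2 to 85.0) and 81.7% (70.7 to 89.9), and in Dntt-zero cells of day 0 90.5% (77.4 to 97.3), all with overlapping intervals.

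**Figure D2:**
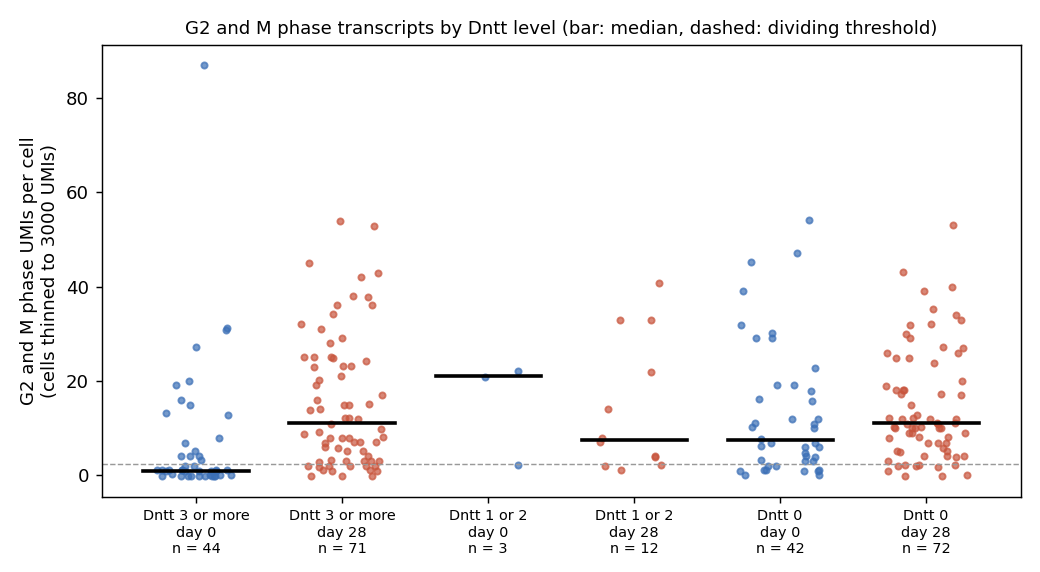
Each point is 1 cell; the vertical axis counts its UMIs over the G2 and M phase genes after thinning to 3000 UMIs, and columns separate the 2 libraries and 3 ranges of Dntt. Black bars are medians and the dashed line marks the threshold of 3 UMIs. The median of Dntt-positive cells is 1 at day 0 and 11 at day 28, while that of Dntt-zero cells is 7.5 and 11.

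Other values moved with this difference. The lowest UMI total in a library was higher at day 28, as given above, and its part in the result was not tested. Among cells of at least 5000 UMIs, thinned to 5000, the shares were 75.9% (44 of 58) and 91.8% (134 of 146), and in Dntt-positive cells 55.6% (35.3 to 74.5) and 89.6% (79.7 to 95.7). The dividing share was also higher at day 28 in other sorted cells: 94.4% against 67.0% in Vpreb3-positive cells, 56.7% against 23.5% in Cd34-positive cells and 35.0% against 17.1% in Ms4a1-positive cells. Without the set-aside cells the Dntt-positive shares were 35.9% and 82.1%. Within Dntt-positive cells Rag1 stood at 81.0 CPM (41.9 to 141) in undividing and 69.8 CPM (33.5 to 128) in dividing cells at day 0, and at 113 CPM (54.3 to 208) and 58.5 CPM (41.0 to 81.0) at day 28, with overlapping intervals in each library.

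Of 4185 genes read between dividing and other cells, leaving out the G2 and M phase list that chose them, 105 were at least 2-fold higher in dividing cells in both libraries, 2.51%, and 68 lower, 1.62%. Within a library 8.0% were higher and 7.6% lower at day 0, and 7.14% higher and 4.32% lower at day 28. Of 5 replication-dependent histone genes, 5 were at least 2-fold higher at day 0 and 2 at day 28, with medians of 2.0 and 0.85 on the log2 scale. Of 6 stem and lymphoid progenitor genes, 4 were at least 2-fold lower in dividing cells in each library, with medians of -1.17 and -1.08. Junb stood at 197 CPM in dividing and 917 CPM in other cells at day 0 and at 90.3 and 235 CPM at day 28. Myl4, higher in Dntt-zero cells, was also 3.92-fold (2.68 to 5.93) and 2.91-fold (2.14 to 4.06) higher in dividing cells. Within Dntt-zero cells it stood at 715 CPM in dividing and 318 CPM in other cells at day 0, and at 700 and 275 CPM at day 28. Within Dntt-positive cells it stood at 105 CPM (58.6 to 173) and 60.7 CPM (27.8 to 115) at day 0. At day 28 it stood there at 87.7 CPM (65.9 to 114) and 90.5 CPM (39.1 to 178), with overlapping intervals in each library. Nucleolar and Myc-responsive genes did not part the 2 kinds of cell, with 0 of 11 past 2-fold in either library.

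The cells were next set beside 3 other kinds of sorted cell in the same library. Cd34-positive cells (51 at day 0, 240 at day 28) held at least 2 UMIs of Cd34 and none of Cd79a or Cd79b. At day 0 this set also held fibroblast transcripts, with Dcn at 914 CPM and Col3a1 at 147 CPM, while Acta2 was at 0. Vpreb3-positive cells (100 and 72) were B lineage cells with at least 3 UMIs of Vpreb3 and at most 1 of Igll1, Vpreb1 and Dntt together. Ms4a1-positive B cells (304 and 40) held at least 2 UMIs of Ms4a1. A gene was counted when it was at least 2-fold apart in both libraries.

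Against Cd34-positive cells, B lineage regulators led. Of 4380 genes read, 246 were at least 2-fold higher in the pro-B and large pre-B cells in both libraries, 5.62%, and 237 were lower, 5.41%. Within a library 10.2% were higher and 8.81% lower at day 0, and 7.35% higher and 6.69% lower at day 28. Ebf1 stood at 1786 against 63.5 CPM at day 0 and 1588 against 10.9 CPM at day 28. Blnk, the adaptor that links the pre-B cell receptor to its kinases, was 42.7-fold (14.4 to 209) and 65.8-fold (38.1 to 125) higher. Pax5 had 0 UMIs in the Cd34-positive cells at day 0, which makes it at least 19.0-fold higher, and was 94.3-fold higher at day 28. Mzb1, Pou2af1, Bfsp2, Lef1, Sdc4, Myl4, Rsph1, Cplx2 and Vpreb3 were also on the ranked list. The lower side held granulocyte and monocyte genes. Mpo, myeloperoxidase, stood at 31.9 against 1737 CPM and at 289 against 1561 CPM, and Ctla2a, Ifitm1, Ms4a6c, Glipr1, Emb, Ccl9, Prtn3, Ctsg, Hp, Lmo2 and Gsr were lower too.

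Against Vpreb3-positive cells, nucleolar and Myc-responsive genes were higher and MHC class II genes lower. Of 4423 genes read, 74 were at least 2-fold higher in both libraries, 1.67%, and 166 lower, 3.75%. Within a library 4.86% were higher and 7.69% lower at day 0, and 3.26% higher and 7.53% lower at day 28. Scaling by trimmed means (TMM) gave 114 higher and 96 lower, so the balance of the 2 sides depends on the scaling. Ccnd2, the cyclin induced by interleukin-7 and pre-B cell receptor signals, was 8.69-fold (4.70 to 17.8) higher at day 0 and 9.98-fold (5.0 to 23.3) at day 28. Its partner kinase Cdk6 was 7.62-fold and 2.82-fold higher. Of 11 nucleolar and Myc-responsive genes, 9 were at least 2-fold higher at day 0 and 5 at day 28, with medians of 1.36 and 0.99 on the log2 scale beside -0.11 and -0.15 for all genes read. Srm, which makes spermidine, was 6.87-fold and 4.12-fold higher, and the lactate dehydrogenase gene Ldha 3.74-fold and 2.70-fold. Impdh1, Bfsp2, Adgrg1, C1qbp, Mif, Hspa9, Igfbp4 and Dkc1 were the other genes on the higher side.

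On the lower side of that comparison, 4 of 5 MHC class II genes at day 0 and 5 of 5 at day 28 were at least 2-fold lower, with Cd74, the invariant chain, at 607 against 3466 CPM and 118 against 569 CPM. Of 8 MHC class I presentation genes, 0 passed 2-fold in either library, with medians of 0.015 and -0.37. Jchain, the joining chain of secreted antibody, stood at 18.0 against 6239 CPM at day 0 and at 524 against 6454 CPM at day 28. Hist1h1c, Tubb2b, Ifi27l2a, Dnajc7, Blvrb, H2-Aa, Fcrla, H2-Eb1 and the neutrophil genes S100a8 and S100a9 were lower as well. The set-aside criteria were applied only to the pro-B and large pre-B cells. Any Vpreb3-positive cells that also held plasma cell or neutrophil transcripts were therefore kept, and their part in these levels was not tested. The Vpreb3-positive cells were themselves dividing in 67.0% and 94.4% of cells, and G2 and M phase genes had a median log2 ratio of -0.82 in both libraries. Rag1 had a ratio of 1.03 (0.536 to 2.04) and 1.71 (0.808 to 4.17). Of 6 recombination and end joining genes read, 0 passed 2-fold at day 0 and 4 were at least 2-fold lower at day 28 (Rag2, Lig4, Xrcc6 and Hmgb2), with medians of -0.37 and -1.25.

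Against Ms4a1-positive B cells, 267 of 4303 genes read were at least 2-fold higher in both libraries, 6.2%, and 177 lower, 4.11%. Within a library 11.3% were higher and 6.39% lower at day 0, and 11.5% higher and 9.46% lower at day 28. Lef1, a Wnt pathway factor of pro-B and pre-B cells, stood at 160 against 5.87 CPM and at 104 against 2.32 CPM. Il7r, the interleukin-7 receptor chain, was 9.53-fold (5.82 to 16.3) and 7.66-fold (3.22 to 23.9) higher, and Sox4, a factor of early B cells, 7.80-fold and 6.5-fold. Pde2a, Cplx2, Rsph1, Lgals9, Nrgn, Prep, Myl4, Ezh2 and Vpreb3 were on the same side. Of 22 G2 and M phase genes, 16 were at least 2-fold higher at day 0 and 22 at day 28. All 7 MHC class II genes read were at least 2-fold lower in both libraries, with Cd74 at 607 against 17703 CPM and 118 against 7088 CPM. Apoe, Slpi, Ly6a, Fcmr, H2-DMb2, Jchain, Cd2, Ltb and Cybb were lower with them.

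**Figure D3:**
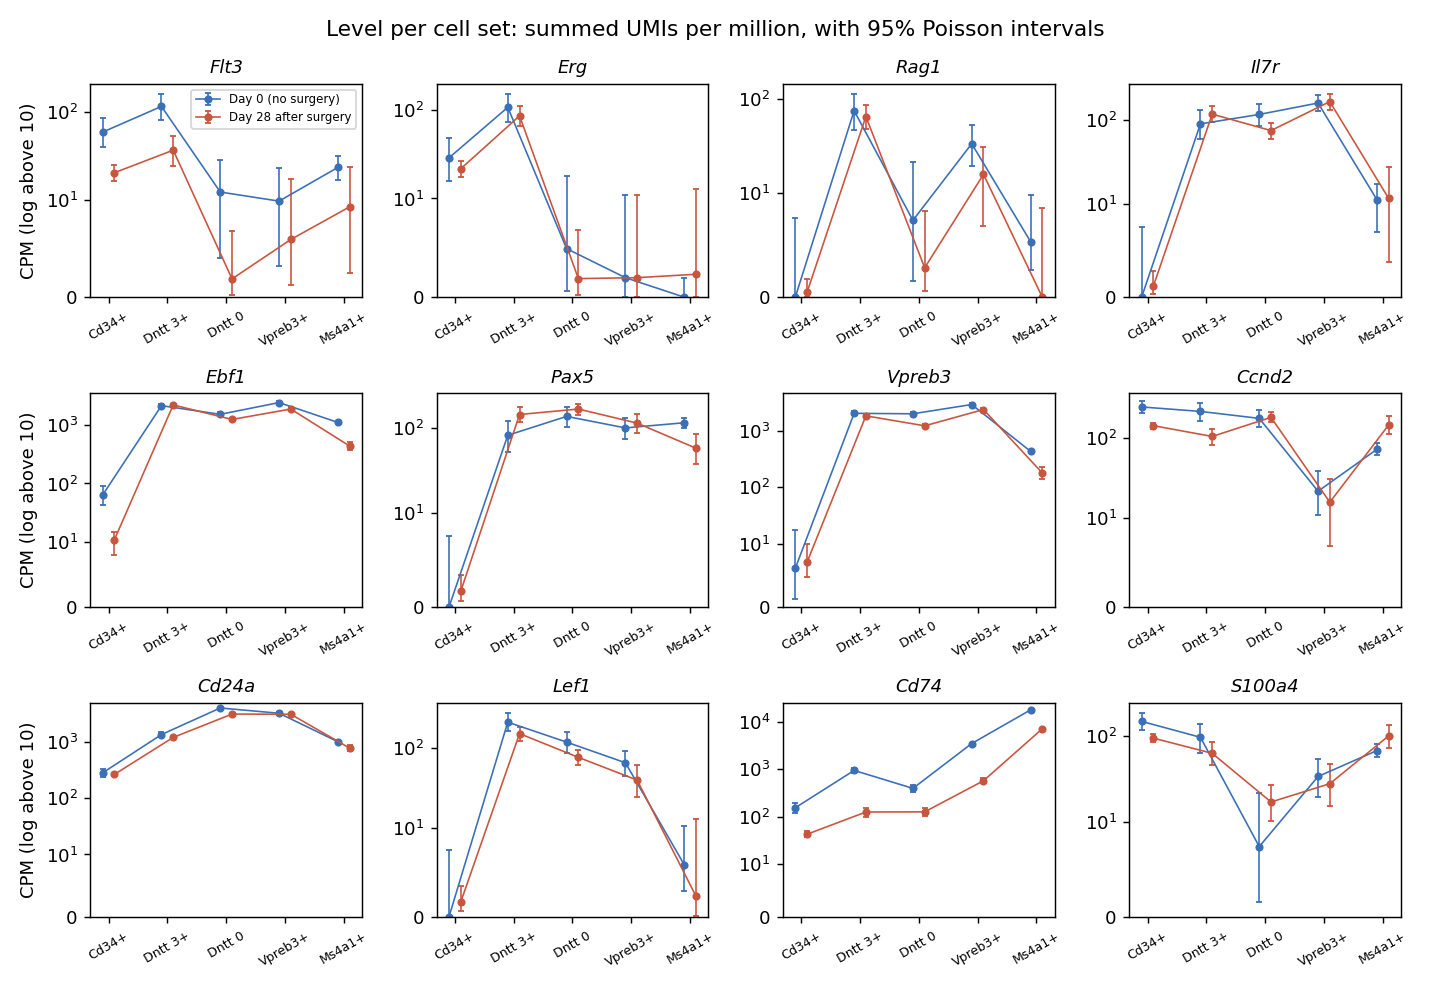
Levels of 12 genes in 5 cell sets (Cd34-positive, Dntt-positive, Dntt-zero, Vpreb3-positive, Ms4a1-positive) for day 0 (blue) and day 28 (red), as CPM of the summed UMIs on an axis that is linear up to 10 and logarithmic above, with 95% Poisson intervals. In both libraries Erg, Flt3 and Rag1 are highest in the Dntt-positive cells, Ccnd2 is lowest in Vpreb3-positive cells, and Cd74 is highest in Ms4a1-positive cells. The day 0 level of Flt3 includes the set-aside cells, all of them Dntt-positive. It is lower without them, and its rank without them is not shown. Lines join sets for reading only and the order is not a measured time course.

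Between the libraries, few genes of these cells were higher at day 28 and more were lower. Of 4764 genes read, 47 were at least 2-fold higher at day 28, 0.987%, and 199 at least 2-fold lower, 4.18%. After TMM scaling the counts were 72 and 106, and the median log2 ratio of all genes read moved from -0.17 to 0.02. The excess of lower over higher genes was smaller with that scaling.

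Among the genes highest at day 28 were the plasma cell gene Jchain and genes of basophils and neutrophil precursors. Jchain went from 18.0 CPM (9.60 to 30.8) to 524 CPM (493 to 557), and 1 cell held 74.9% of its day 28 UMIs. Prss34, a basophil protease, stood at 4.16 and 105 CPM, with 74.3% in 1 cell. Mpo, Prtn3, Elane and Ctsg, of neutrophil precursors, stood at 31.9, 56.9, 72.1 and 52.7 CPM at day 0 and at 289, 460, 530 and 218 CPM at day 28. They were found in 69.0% to 85.1% of day 28 erythroid cells, which should lack them, against 16.1% to 24.2% at day 0. The day 28 pro-B and large pre-B cells held a UMI of Mpo in 70.3%, of Prtn3 in 74.8%, of Elane in 69.7% and of Ctsg in 51.6% of cells, each below its erythroid share. The erythroid cells were deeper, at a median of 15231 UMIs against 10564. Whether these UMIs are background RNA was not tested. Jchain likewise was found in 76.1% of the day 28 cells and in 82.8% of erythroid cells. In Dntt-positive cells the log2 ratio of Elane was -0.13 and that of Ctsg -0.50, and in Dntt-zero cells 4.28 and 4.80. Without the set-aside cells the log2 ratios of Jchain and Prss34 were 2.99 and 2.62 in place of 4.86 and 4.66. Those of Mpo, Prtn3, Elane and Ctsg were 2.55, 2.99, 1.90 and 2.0 in place of 3.18, 3.02, 2.88 and 2.05. The whole neutrophil list had 259 CPM at day 0 and 1648 CPM at day 28, and 128 and 549.6 CPM without those cells. Ms4a3, Nkg7 and Slpi were also ranked, with 27.1%, 33.8% and 31.8% of their day 28 UMIs in 1 cell. The log2 ratios without those cells were 2.45, 1.04 and 1.58 for Ms4a3, Nkg7 and Slpi.

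Nutf2, Rnaset2a and Rnaset2b, the remaining genes on the higher side, were spread over many cells. Nutf2, a carrier for nuclear import, stood at 29.1 CPM (18.0 to 44.5) at day 0 in 17 cells and 84.7 CPM (72.3 to 98.6) at day 28 in 86 cells. The RNase T2 copies Rnaset2a and Rnaset2b, whose last 300 bases were 99.7% identical, summed to 80.4 and 217 CPM. All 3 were also higher at day 28 in Vpreb3-positive, Ms4a1-positive, Cd34-positive and erythroid cells, by log2 ratios of 0.96 to 2.26.

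On the lower side at day 28, several genes have near-identical copies elsewhere in the genome. The histone gene Hist1h2ap was 24.2-fold lower, while its copies Hist1h2an and Hist1h2ao went from 0 and 1 UMIs to 31 and 10, and the sum of the 3 was 10.6-fold lower. For these histone genes the direction at day 28 thus differed between copies. Gstp1, a glutathione transferase, had 71 and 4 UMIs, and its copy Gstp2, identical over the last 300 bases, had 1 and 0. Eno1, the enolase of glycolysis, was 3.77-fold lower alone and 3.70-fold lower with its copy Eno1b. The counts of all these genes are uncertain, since the counting may have split or dropped reads shared by copies.

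The other ranked genes on that side were Cd74, Gem, Polr2l, Junb, Cebpb, Shisa5, Il16 and Vpreb2. Cd74 had 607 CPM (552 to 667) without surgery and 118 CPM (103 to 134) after it, and it was found in 71 of 89 and 50 of 155 cells. Those shares, 79.8% and 32.3%, lay near the 79.0% and 39.1% of erythroid cells, which should lack it. The erythroid cells were deeper, at medians of 8399 and 15231 UMIs against 6019 and 10564. Whether the Cd74 UMIs are background was not tested. Junb, an immediate early factor, had 419 CPM (373 to 469) in 62 cells and 111 CPM (96.5 to 127) in 81 cells. Gem, a small GTPase, stood at 87.4 and 19.9 CPM. Cebpb, a myeloid factor, stood at 77.7 CPM in 17 cells and 23.5 CPM in 29 cells, and its log2 ratio was -3.04 in Dntt-positive and 0.75 in Dntt-zero cells. Cd74, Junb, Polr2l, Shisa5 and Il16 were also lower at day 28 in the Vpreb3-positive, Ms4a1-positive, Cd34-positive and erythroid cells, by log2 ratios of -0.33 to -2.67.

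**Figure D4:**
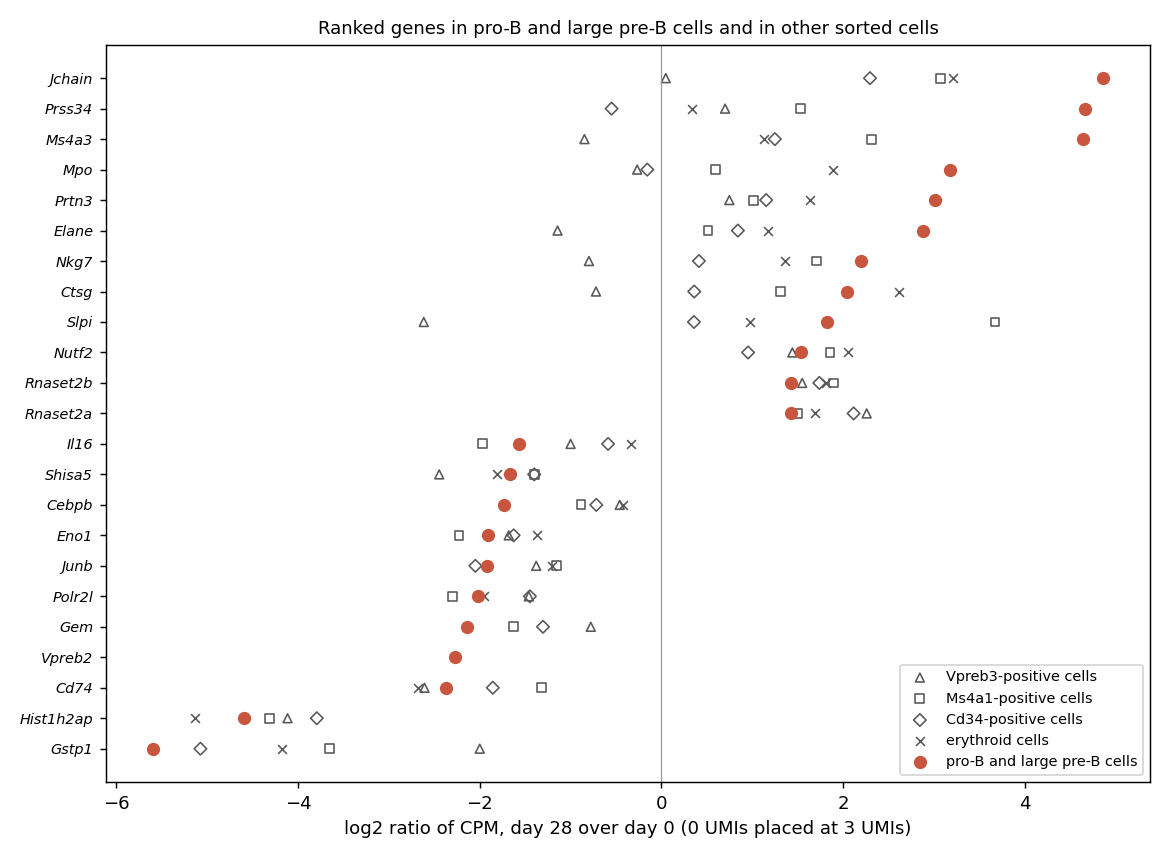
The ranked genes, with the log2 ratio of CPM at day 28 over day 0 on the horizontal axis. Filled red points are the pro-B and large pre-B cells, and open or crossed grey marks the Vpreb3-positive, Ms4a1-positive, Cd34-positive and erythroid cells of the same 2 libraries; where 1 library had 0 UMIs it was set to 3 UMIs, and a gene with 0 UMIs in both has no mark. Cd74, Junb and Polr2l lie left of 0 in all 5 sets, whereas Jchain, Prss34 and Ms4a3 are farther right in the pro-B and large pre-B cells than in the others.

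By gene list, MHC class II and immediate early genes were lower at day 28. All 5 MHC class II genes read were at least 2-fold lower, with a median log2 ratio of -1.31, and so they were without the set-aside cells (median -1.82). With cells thinned, 2 of 5 were (median -0.99). Of 8 MHC class I presentation genes 0 were at least 2-fold lower, with a median of -0.53. H2-Aa stood at 161 and 64.8 CPM and H2-Ab1 at 293 and 135 CPM. H2-Ab1 was found in 78.7% and 70.3% of the cells, against 38.7% and 35.6% of erythroid cells. Over the same genes the median was -1.52 in Vpreb3-positive, -1.32 in Ms4a1-positive, -1.45 in Cd34-positive and -1.07 in erythroid cells. Of 12 immediate early and dissociation stress genes, 7 were at least 2-fold lower, with a median of -1.08, and 4 without the set-aside cells. Fos stood at 187 and 70.4 CPM. That median was -1.19 in Dntt-positive and -0.57 in Dntt-zero cells, -1.26 in Cd34-positive cells and 0.33 in Ms4a1-positive cells. Of 11 small pre-B and later B cell genes, 6 were at least 2-fold lower, 4 of them MHC class II genes and the others Ltb and Klf2.

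None of 24 G2 and M phase genes read passed 2-fold in all the cells, with a median of 0.33; Mki67 stood at 114 CPM (90.5 to 141) and 163 CPM (146 to 182). In Dntt-positive cells 13 of 24 were at least 2-fold higher at day 28, with a median of 1.03, and in Dntt-zero cells 0 were, with a median of -0.01. These genes also define the dividing cells, so the list and the dividing share are the same measure. Of 26 S phase genes, 1 was at least 2-fold lower (Ung, at 95.7 and 43.9 CPM), with a median of -0.22.

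Among the pathways that define the stage, the surrogate light chain list had 2 genes read outside the rule, Vpreb2 (1 of 2 at least 2-fold lower, with the copy problem above) and Vpreb3, with a median log2 ratio of -1.38. Of 12 genes of interleukin-7 signalling, 2 were at least 2-fold lower and 0 higher, with a median of -0.50. They were Il2rg, the shared receptor chain, at 68.0 and 18.4 CPM, and Myc, at 49.9 and 19.4 CPM. Without the set-aside cells 2 of the 12 were at least 2-fold lower, but the median was -0.24, beside -0.16 for all genes read. Il7r itself stood at 107 CPM (84.3 to 133) and 88.8 CPM (76.1 to 103), with overlapping intervals, and Ccnd2 at a ratio of 0.836. Of 15 genes of pre-B cell receptor signalling, Vav1 was at least 2-fold lower, at 81.8 and 39.3 CPM, and 0 were higher. Without the set-aside cells 0 of the 15 passed 2-fold on either side. Of 24 B lineage transcription factors, 2 were at least 2-fold lower, Spib (119 and 50.02 CPM) and Klf2 (101 and 43.9 CPM), and 0 were higher. Of the 5 recombination and end joining genes read outside the rule, 2 were at least 2-fold lower and 0 higher, with a median of -0.36. Lig4, the ligase of the joining step, stood at 34.7 and 12.2 CPM, and Xrcc6, a Ku subunit, at 158 and 77.1 CPM. Rag1 stood at 34.7 CPM (22.4 to 51.2) and 27.1 CPM (20.3 to 35.4).

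**Figure D5:**
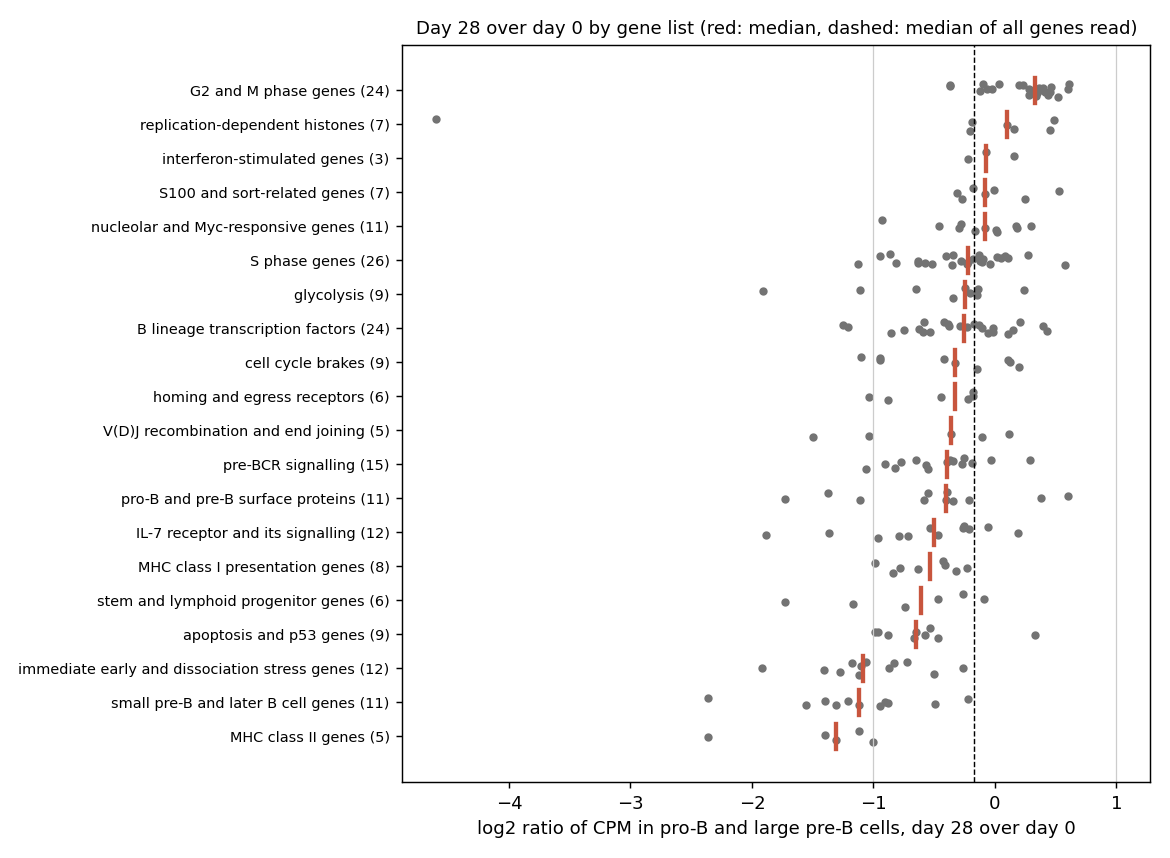
Each grey point is 1 gene of a fixed list, at its log2 ratio of CPM at day 28 over day 0 in the pro-B and large pre-B cells; red bars are list medians, the number of genes read stands beside each list, and the dashed line is the median of all genes read, -0.17. Lists with fewer than 3 genes read are not drawn. Of the lists drawn, G2 and M phase genes lie highest (median 0.33) and MHC class II genes lowest (median -1.31).

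Genes tied to the sort were sparse in these cells. S100a4, whose promoter drives Cre, had 31 UMIs in 8 of 89 cells at day 0, 74.2% of them in 1 cell, and 68 UMIs in 28 of 155 cells at day 28. After thinning, 4.49% and 6.45% of cells held an S100a4 UMI. Unthinned the shares were 8.99% and 18.1%, beside 4.84% and 20.7% of erythroid cells. Itgam, which encodes CD11b, had 2 UMIs in each library. Ptprc, the CD45 gene of blood cells, stood at 61.0 CPM (44.3 to 81.9) and 50.5 CPM (41.1 to 61.5). Lgals1 had a ratio of 1.44 at 368 and 528 CPM, and 0 of 7 genes of this list passed 2-fold in all the cells. Without the set-aside cells 1 of the 7 was at least 2-fold higher at day 28 and 0 were lower. In Dntt-zero cells 2 were higher and in undividing cells 3, with 0 lower in both, while in dividing cells 0 were higher and 1 lower.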

How the data were processed

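Single-cell RNA was measured in 1 library per group. The matrices deposited by the authors hold whole UMI counts without normalisation. Cell Ranger 2.1.1, STAR and build mm10 are named in the submitters' processing notes. The labelled chemistry is 3′ v1, although barcodes of 16 bases were found. Cells needed 500 or more genes and no more than 10% mitochondrial UMIs (2666 and 2636 passed). Of 27998 gene identifiers, 27645 were matched to GENCODE M21 on GRCm38 for coordinates. Ighm, Igkc, Ighd and Trac are not among the genes analysed here.

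The cells, the gene lists and the comparisons were chosen with earlier results of these data known. UMIs were summed per cell set and library and scaled to CPM; genes at a mean of at least 20 CPM were read, a fold of 2 was counted, and a sum of 0 was placed at 3 UMIs, which makes the ratio a bound. There is no test with 1 library per group. Named are the rule genes, fixed list genes at 20 CPM or more, and, at 50 CPM or more, the 12 highest and lowest ratios of each comparison (10 for Dntt), leaving out mitochondrial, ribosomal, haemoglobin, sex-linked and predicted genes; Hist1h2an, Hist1h2ao, Gstp2 and Eno1b were added after values were seen. Of the ranked genes, 1 is not reported here. The ratio calls were tried on simulated Poisson sums without single cells, which cannot show how far 1 cell or a mixed cell moves a ratio. Doublets were kept. Scrublet (scanpy 1.11.5) scored them, and leaving out the 57 and 56 top-scoring barcodes (1 and 6 of these cells) was an alternative. Leaving out the set-aside cells was another, chosen after seeing the data. TMM factors came from edgeR 4.0.16 in R 4.3.3. Other tools were numpy 2.4.6, scipy 1.17.1, pandas 2.3.3 and matplotlib 3.10.9.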

Additional observations from a re-analysis of the deposited data

Results flagged for a closer look

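Some named genes lay at least 2-fold to 1 side in the day 0 library and at least 2-fold to the other side in the day 28 library, with both counting intervals leaving out a ratio of 1. With 1 library per group these differences were not tested. Between Dntt-positive and Dntt-zero cells the log2 ratio was 2.80 at day 0 and -1.09 at day 28 for Nkg7, 3.03 and -1.47 for Prtn3, 2.07 and -2.35 for Elane, and 3.57 and -1.73 for Ctsg. Without the set-aside cells those of Elane were -0.22 and -0.02, those of Prtn3 0.31 and -0.09, those of Ctsg 1.48 and 0.29, and those of Nkg7 2.89 and 1.14. The histone gene Hist1h2ae had -1.52 and 1.37, and -2.43 and 1.25 without those cells. Between dividing and other cells Elane had 2.42 and -1.61. Against Vpreb3-positive cells Nkg7 had -1.66 and 1.34, and Ms4a3 had -4.42 (a ratio of 0.0468, 0.00931 to 0.146, on 3 UMIs) and 1.07. Against Ms4a1-positive B cells the immediate early gene Ier3 had 1.38 and -1.10, at 41.6 against 16 CPM and 18.4 against 39.4 CPM.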

How the results depend on the processing

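The share of the cells depended on depth: thinned to 3000 UMIs before the rule it was 3.53% at day 28 with a ratio of 1.21, and among barcodes of at least 5000 UMIs it was 4.54% at day 0 with a ratio of 1.34. For day 28 over day 0, genes at least 2-fold higher and lower numbered 144 and 517 with cells thinned, 18 and 73 at a mean of 50 CPM, 72 and 106 with TMM scaling, 601 and 1522 with no filter beyond 1 UMI, 307 and 879 in undividing cells, and 158 and 533 in Dntt-positive cells; 112 were higher in Dntt-zero cells, and 330 lower by the mean of per-cell CPM. Fewer UMIs or genes with fewer counts enter most of these. Against Vpreb3-positive cells the counts were 32 and 90 at 50 CPM, 114 and 96 with TMM and 277 and 438 unfiltered. At 50 CPM they were 146 and 81 against Ms4a1-positive and 124 and 91 against Cd34-positive cells. Between Dntt strata they were 52 and 15 at 50 CPM and 527 and 120 unfiltered, with 54 lower after thinning. The dividing share at day 0 was 82.0% by S phase genes and 75.9% at 5000 UMIs; at day 28 it was 87.7% by S phase genes, 93.5% unthinned, 92.3% at 2 or more UMIs, 74.2% at 5 or more and 91.8% at 5000 UMIs. The log2 ratio changed sign for Cd27 (0.45 in dividing and 2.42 in Dntt-zero cells), Cebpb (0.75 in Dntt-zero), Ctsg (-0.50) and Elane (-0.13, both in Dntt-positive cells); the cause was not tested. No paired analysis was possible because each group has 1 library.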
